A study of Mus musculus with 4 samples.

Results

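Cycling ECs are the barcodes of the scRNA-Seq data that carried transcripts of the endothelial junction and of the cell division machinery together. A barcode marks 1 droplet, and a unique molecular identifier (UMI) marks 1 captured transcript, so that copies made by PCR count once. Among the 26525 barcodes with at least 2000 UMIs and under 10% mitochondrial UMIs, 12733 were endothelial, with at least 5 UMIs of *Cldn5*, *Cdh5*, *Egfl7*, and *Esam* together and at most 2 of the immune genes *Ptprc*, *Laptm5*, and *Coro1a*. Of these, 142 held a UMI of at least 3 of 12 cycle genes (*Mki67*, *Top2a*, *Birc5*, *Cdk1*, *Ccna2*, *Ccnb1*, *Cenpf*, *Nusap1*, *Tpx2*, *Prc1*, *Ube2c*, and *Hmmr*) and were taken as cycling ECs, that is, chosen by measured UMIs. The 11731 endothelial barcodes with a UMI of none of the 12 genes served as reference ECs, and the 860 with 1 or 2 of them fell between. These 19 genes chose the barcodes, and their own values are given below as a description.

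All 4 libraries came from spinal cords (SCs) of mice with EAE, an autoimmune inflammation of the CNS induced with a myelin peptide in complete Freund's adjuvant, so that no library shows the uninflamed SC. In the blockade pair, wild-type C57Bl/6JOlaHsd mice aged 15 weeks received a control antibody (mIgG1) or an antibody against angiopoietin-2 (Ang2 Ab) from the day of induction and were analyzed at 14 days post immunization (dpi). In the overexpression pair, C57Bl/6JCrl mice aged 12 to 14 weeks were analyzed at 12 dpi, either mice with both the *VE-cadherin-tTA* and the *Tet-OS-Ang2* transgene (*EC-Ang2*), in which an endothelial promoter drives Ang2 and doxycycline had held it silent until birth, or littermates with 1 of these transgenes (Ctrl). Pertussis toxin was also given at induction, at a lower dose in the overexpression pair than in the blockade pair. CD45+ and CD31+ cells were sorted in equal numbers from perfused SCs into 1 library per condition, for which the number of mice is not stated, so that no difference between conditions could be tested.

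ECs of the adult CNS rarely divide, and they form the blood-brain barrier through tight junctions and selective transporters. When a cell is committed to division, cyclin E and E2F factors switch on the genes that copy DNA, and genes for the spindle and for chromosome segregation follow in G2 and mitosis. Endothelial tubes are organized from arteries through capillaries to veins, and in inflamed tissue leukocytes enter mainly through venules, whose ECs carry selectins and adhesion molecules. Angiopoietin-2, the protein of *Angpt2*, is an EC-derived ligand that antagonizes Tie2 (gene *Tek*) in many settings and that is linked to vessel remodeling.

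The promoters of many cycle genes carry short motifs. The cell cycle gene homology region (CHR), TTTGAA, is a binding motif of the complexes that hold G2 and mitosis genes silent in resting cells, often near a CCAAT box, and TTCCCGC is a form of the E2F motif of replication genes. The promoters of 4 genes that were higher in cycling ECs of each library are shown because they carry these letters. They are the pair with the highest mean level in cycling ECs among the genes considered in each of the mitosis and replication lists. Only genes with the motif and a single promoter window were considered, and genes of a single chromosome were left out. Sequences run 5′ to 3′ on the gene's strand from 250 bases before to 50 after the start in RefSeq (GRCm38.p6), and capitals mark the motif or its reverse complement. *Cks1b* (chr3:89418242-89418541, minus strand) and *Cenpa* (chr5:30666636-30666935, plus strand) belong to the mitosis list, with CHR and CCAAT in capitals, and *Rrm1* (chr7:102441445-102441744, plus strand) and *Mcm3* (chr1:20820263-20820562, minus strand) to the replication list, with TTCCCGC in capitals.
Cks1b: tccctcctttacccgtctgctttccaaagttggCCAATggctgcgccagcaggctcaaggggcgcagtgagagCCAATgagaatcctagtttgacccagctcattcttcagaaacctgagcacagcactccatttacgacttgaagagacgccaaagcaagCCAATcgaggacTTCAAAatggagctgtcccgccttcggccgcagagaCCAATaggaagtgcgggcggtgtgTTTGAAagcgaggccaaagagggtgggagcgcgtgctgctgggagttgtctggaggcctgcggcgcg
Cenpa: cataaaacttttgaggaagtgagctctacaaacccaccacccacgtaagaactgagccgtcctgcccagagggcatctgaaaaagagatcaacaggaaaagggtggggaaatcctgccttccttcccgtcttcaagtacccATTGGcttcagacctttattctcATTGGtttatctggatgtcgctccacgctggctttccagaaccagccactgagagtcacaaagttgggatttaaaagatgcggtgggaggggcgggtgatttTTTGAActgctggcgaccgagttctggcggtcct
Rrm1: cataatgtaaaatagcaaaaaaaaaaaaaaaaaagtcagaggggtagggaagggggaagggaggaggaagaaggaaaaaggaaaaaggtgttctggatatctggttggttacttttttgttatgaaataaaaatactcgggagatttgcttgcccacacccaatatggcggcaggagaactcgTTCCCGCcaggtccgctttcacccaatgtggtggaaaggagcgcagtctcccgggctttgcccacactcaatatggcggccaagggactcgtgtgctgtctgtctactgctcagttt
Mcm3: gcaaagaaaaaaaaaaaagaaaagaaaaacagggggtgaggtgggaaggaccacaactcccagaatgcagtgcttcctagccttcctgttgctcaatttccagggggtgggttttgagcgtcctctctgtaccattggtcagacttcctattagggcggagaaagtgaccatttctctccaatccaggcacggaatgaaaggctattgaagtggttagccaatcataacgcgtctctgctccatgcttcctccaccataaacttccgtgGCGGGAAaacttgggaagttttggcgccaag

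In *Cks1b*, whose product binds cyclin-dependent kinases, 1 CHR began 17 bases before the start and another, on the other strand, 77 bases before it, beside 4 CCAAT boxes. *Cenpa*, which encodes the histone that marks the centromere, had its CHR 17 bases after the start and a pair of CCAAT boxes on the other strand. The E2F letters began 67 bases before the start of *Rrm1*, a subunit of ribonucleotide reductase, and 20 bases after that of *Mcm3*, a subunit of the replicative helicase, there on the other strand. On either strand, TTTGAA was present for 29 of the 40 mitosis genes matched by symbol (72.5%, of 46 in the list), for 6 of 35 replication genes matched (17.1%, of 47), and for 20.2% of the 27025 genes of the table. TTCCCGC was present for 18 of 35 replication genes (51.4%), 1 of 40 mitosis genes (2.50%), and 5.29% of all genes. CCAAT was found for 31 of 40 mitosis and 24 of 35 replication genes (77.5% and 68.6%), against 41.1% of all genes. Of the 8843 tested genes with a window, 13.9% held TTTGAA, 10.1% TTCCCGC, and 42.9% CCAAT. These matches describe letters in a window and show no binding.

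Cycling ECs numbered 62 of 3035 endothelial barcodes in mIgG1, 8 of 3594 in Ang2 Ab, 18 of 3639 in Ctrl, and 54 of 2465 in *EC-Ang2*. The shares were 2.04% (exact binomial 95% interval 1.57% to 2.61%), 0.223% (0.0961% to 0.438%), 0.495% (0.293% to 0.781%), and 2.19% (1.65% to 2.85%). Such intervals leave out how mice or libraries vary. The lowest share lay in the library of mice given the Ang2 antibody and the highest in that of Ang2-overexpressing mice, but the control libraries themselves did not overlap, with mIgG1 close to *EC-Ang2* and Ctrl closer to Ang2 Ab. Because a deep barcode shows more genes, each barcode was also thinned to 2000 UMIs. The shares became 0.857% (26 barcodes, 0.560% to 1.25%), 0.0835% (3, 0.0172% to 0.244%), 0.302% (11, 0.151% to 0.540%), and 0.933% (23, 0.592% to 1.40%), and the order of the 4 libraries stayed. Immune barcodes had another order. Their cycling shares were 2.54% of 2482 in mIgG1, 6.42% of 2306 in Ang2 Ab, 13.6% of 2105 in Ctrl, and 3.19% of 2071 in *EC-Ang2*, and 1.29%, 2.47%, 7.13%, and 1.40% after thinning.

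**Figure D1:**
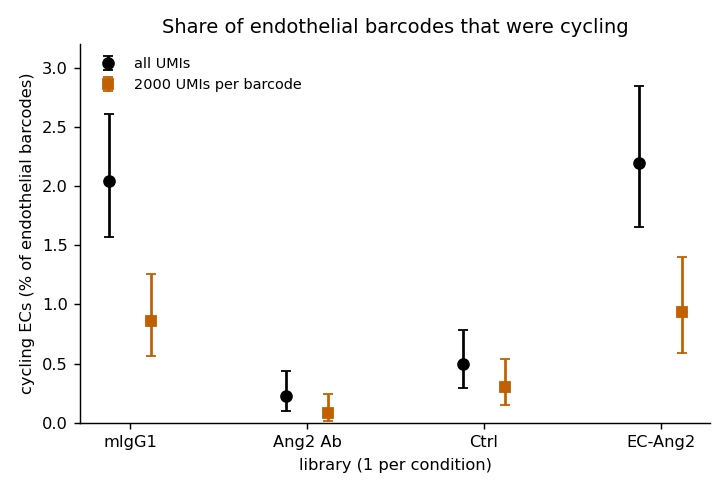
Cycling ECs as a percentage of endothelial barcodes (y axis) in each of the 4 libraries (x axis), with all UMIs (black circles) and with each barcode thinned to 2000 UMIs (orange squares); bars are exact binomial 95% intervals. The mIgG1 (2.04%) and *EC-Ang2* (2.19%) libraries lie above Ang2 Ab (0.223%) and Ctrl (0.495%) on both scales, with 1 library per condition. Barcodes with both endothelial and immune UMIs are left out.

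At the threshold, 7 mIgG1, 3 Ang2 Ab, 0 Ctrl, and 6 *EC-Ang2* barcodes held exactly 3 of the 12 genes, and 22, 9, 13, and 23 endothelial barcodes held 2. All 12 genes were detected in 13, 1, 4, and 13 barcodes. *Mki67*, which encodes the proliferation antigen Ki-67, had a UMI in 41 of 62, 4 of 8, 13 of 18, and 40 of 54 cycling ECs, and *Top2a*, the topoisomerase that untangles sister chromatids, in 43, 6, 15, and 40. Their levels in cycling ECs were 93.3, 149, 111, and 77.4 UMIs per 1000000 UMIs of the class (CPM) for *Mki67* and 304, 227, 241, and 229 CPM for *Top2a*.

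Cycling ECs were far deeper than reference ECs. They held a median of 20094.5, 18063.5, 16806.5, and 23755 UMIs in mIgG1, Ang2 Ab, Ctrl, and *EC-Ang2*, against 4610, 3651, 4264, and 5890 in reference ECs, and 4529.5, 4239, 4178, and 4686 genes. They ranged from 2003 to 64922 UMIs. How much of this is more RNA in a dividing cell, how much is that a deep barcode meets the rule more readily, and how much is droplets with more than 1 cell cannot be told apart here. Therefore the gene lists and most of the named genes below are given against all reference ECs and against a second reference, in which each cycling barcode was paired with the reference barcode of its library nearest in UMI total. The pairing left a gap in depth, with 1317826, 154208, 340890, and 1331197 UMIs in cycling ECs against 1156486, 149672, 296266, and 1262563 in paired ones. Scrublet, which scores barcodes by their likeness to simulated doublets, called 6 of 62, 0 of 8, 2 of 18, and 1 of 54 cycling barcodes (9.68%, 0%, 11.1%, and 1.85%), against 1.47%, 3.34%, 2.18%, and 2.46% of reference ECs. Of the 142 barcode sequences, 4 were also kept in another library, none of them as a cycling EC.

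The barcodes were endothelial by markers that the rule did not use. With each barcode thinned to 2000 UMIs, *Pecam1* (CD31) had a UMI in 58.5% of cycling ECs, 70.0% of reference ECs, and 5.05% of immune barcodes, and *Slc2a1*, the glucose transporter of the barrier, in 86.6%, 98.4%, and 32.9%. *Vwf*, which encodes von Willebrand factor, had one in 54.2%, 40.5%, and 2.41%. UMIs of 13 immune markers summed to 1491, 1420, 1831, and 1326 CPM in cycling ECs of mIgG1, Ang2 Ab, Ctrl, and *EC-Ang2* and to 1818, 1628, 1251, and 1570 CPM in reference ECs. The most abundant was *Lyz2* in mIgG1 and *Cd14*, which inflamed ECs can express, in the other three. *Cd3e* and *Cd3g* were at 0 in Ang2 Ab and Ctrl. In Ctrl, 1 barcode of 5949 UMIs held 140 of the 624 immune UMIs. Pericyte and smooth muscle (mural) markers summed to 308, 19.5, 38.1, and 49.6 CPM in cycling against 783, 931, 1003, and 501 CPM in reference ECs, led by *Rgs5* except in cycling ECs of *EC-Ang2*, where *Vtn* led, and 265 of the 406 mural UMIs in mIgG1 lay in 1 barcode. Hemoglobin transcripts were nearly absent from cycling ECs, at 0.759, 13.0, 52.8, and 9.77 CPM against 2.39, 901, 7521, and 1192 CPM. In the depth-paired reference of Ctrl the 4 hemoglobin genes stood at 26642 (*Hbb-bs*), 14318 (*Hba-a1*), 10990 (*Hba-a2*), and 6741 CPM (*Hbb-bt*), whereas each was at 0 in that of mIgG1 and Ang2 Ab and at most at 8.71 CPM in that of *EC-Ang2*. The part of these other transcripts in the results below was not tested, beyond the counts of genes without barcodes that held an immune UMI.

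Replication and mitosis genes differed widely among the 142 barcodes. Replication genes took a median of 14.9, 48.5, 15.3, and 23.1 of each 10000 UMIs of a barcode in mIgG1, Ang2 Ab, Ctrl, and *EC-Ang2*, with a range of 0.709 to 88.3 over all barcodes, and mitosis genes 25.8, 24.0, 37.1, and 23.9, with a range of 2.89 to 128. UMIs of replication genes outnumbered those of mitosis genes in 24 of 62, 5 of 8, 5 of 18, and 22 of 54 barcodes, or 38.7% (26.6% to 51.9%), 62.5% (24.5% to 91.5%), 27.8% (9.69% to 53.5%), and 40.7% (27.6% to 55.0%). These intervals overlap in all 4 libraries. In all, 56 of 142 barcodes (39.4%) leaned to replication. The 12 genes of the rule mostly serve G2 and mitosis, so that barcodes in early S phase are less likely to be among the members. Replication UMIs led in 9 of 16 barcodes with 3 genes, 18 of 39 with 4 to 6, 17 of 30 with 7 to 9, and 12 of 57 with 10 to 12 (21.1%, 11.4% to 33.9%).

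**Figure D2:**
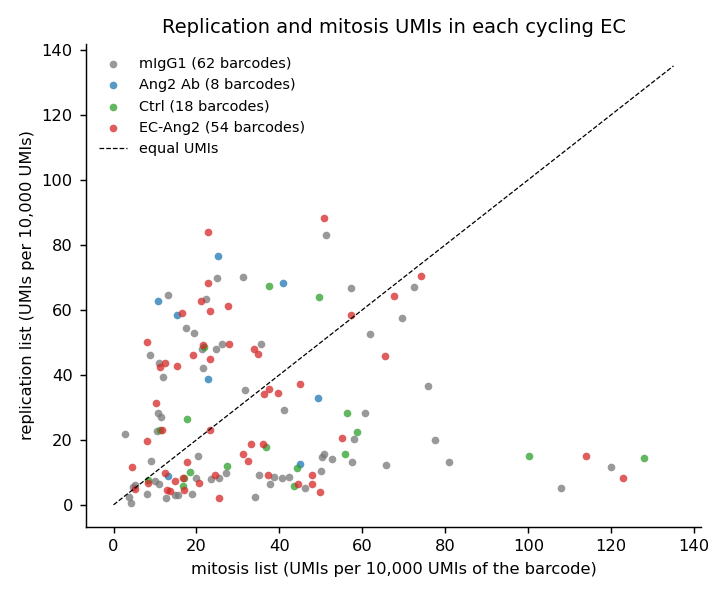
Each point is 1 of the 142 cycling ECs, placed by the UMIs of mitosis genes (x axis) and of replication genes (y axis) per 10,000 UMIs of the barcode and colored by library; on the dashed line both are equal. Points of every library lie on both sides of the line, with 56 barcodes above it.

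Replication and mitosis genes were highest at different numbers of cycle genes detected in most libraries. Summed over the libraries, replication genes were at 524 CPM in endothelial barcodes with none of the 12 genes, 552 with 1, 981 with 2, 1858 with 3, 2136 with 4 to 6, 3401 with 7 to 9, and 2758 with 10 to 12. Mitosis genes were at 484, 473, 591, 898, 1618, 2459, and 4956 CPM. The libraries enter these groups unequally, with 0 Ctrl barcodes at 3 genes, 0 Ang2 Ab barcodes at 4 to 6, and 2 at 7 to 9. Within libraries, mitosis genes were highest at 10 to 12 genes in all 4, at 5382, 4588, 5677, and 4366 CPM in mIgG1, Ang2 Ab, Ctrl, and *EC-Ang2*. Replication genes were highest at 7 to 9 in mIgG1, Ang2 Ab, and Ctrl (3742, 5234, and 3369 CPM) and at 10 to 12 in *EC-Ang2* (3233 CPM). Capillary-arterial genes went from 757 CPM with none of the 12 genes to 198 CPM with 2 and 99.0 CPM with 10 to 12. Venous genes were at 5808 CPM with none, 12047 CPM with 3, and 8217 CPM with 10 to 12. Within libraries they were highest at 3 genes in mIgG1 and *EC-Ang2* (9607 and 15742 CPM), at 4 to 6 in Ctrl (13470 CPM), and at 7 to 9 in Ang2 Ab (17381 CPM). The median UMI total also differed between these groups, at 4334, 6416, 13233, 18004.5, 16801, 20741.5, and 25071 UMIs in the same order, and its part in these levels was not tested.

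**Figure D3:**
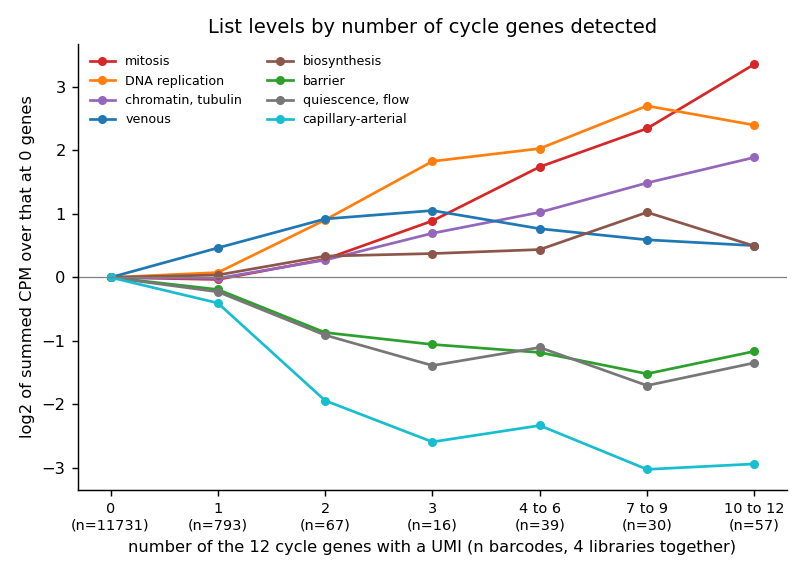
Summed levels of 8 gene lists (y axis, log2 of CPM over the level in barcodes with none of the genes) by the number of the 12 cycle genes with a UMI (x axis, with the number of barcodes, 4 libraries together). In these sums, to which the libraries contribute unequally, mitosis genes are highest at 10 to 12 genes, replication genes at 7 to 9, venous genes at 3, and barrier, flow-linked, and capillary-arterial genes lie below 0 from 1 gene on.

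Genes were then compared between cycling and reference ECs over the 4 libraries, each of which gave both classes, by edgeR's quasi-likelihood test with Benjamini-Hochberg adjustment over all genes. Of 11635 genes tested, 1735 were higher (14.9%) and 1677 lower (14.4%) in cycling ECs. Against the depth-paired reference, 482 (6.94%) of 6941 genes were higher and 296 (4.26%) lower. Among genes tested in both, 462 were called higher with both references, or 32.6% of those called with all reference ECs and 95.9% of those called with paired ones. For lower genes the number was 243, or 20.2% and 82.1%. The comparison pools mice of 4 conditions, and the smallest class held 8 barcodes.

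The cycle genes themselves are a description, because barcodes chosen for 12 cycle genes must carry others. The 10 largest rises were *Mxd3*, *Fam64a*, *Cep55*, *Aurkb*, *Ccnb2*, *2810417H13Rik*, *Hist1h2ap*, *Ckap2*, *Rrm2*, and *Kif20a*, with log2 fold changes from 10.2 for *Mxd3*, a MYC antagonist of the MAD family, to 7.27 for *Kif20a*, a kinesin of cytokinesis. *Rrm2*, the regulated subunit of ribonucleotide reductase, was at 147, 234, 112, and 192 CPM in cycling ECs of mIgG1, Ang2 Ab, Ctrl, and *EC-Ang2*, and at 0.628, 1.07, 1.39, and 0.925 CPM in reference ECs. *Ccnb2*, a mitotic cyclin, was at 206, 169, 164, and 132 CPM against 1.01, 0.626, 0.753, and 0.463 CPM. In both genes each library alone showed the gap. In the paired reference *Rrm2* was at 0.865, 0, 0, and 2.38 CPM and *Ccnb2* at 0, 0, 0, and 1.58 CPM. Their fitted log2 fold changes there, 6.73 and 7.57, are therefore not exact folds. Of the replication list, 43 of 45 tested genes were higher (median log2 fold change 2.81), and of the mitosis list 43 of 44 (5.86). Chromatin and tubulin genes, which supply histone variants, HMG proteins, and microtubules, were higher in 18 of 18 (2.03). Against the paired reference the medians were 2.70, 5.22, and 1.71. *Stmn1*, which encodes a microtubule destabilizer, stood at 983, 1083, 1311, and 905 CPM against 130, 108, 178, and 120 CPM, and *Hmgb2*, a chromatin protein, at 959, 791, 983, and 886 CPM against 76.0, 95.4, 110, and 86.0 CPM. Against the paired reference their log2 fold changes were 3.58 and 3.46.

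Regulators of the G1 phase moved in both directions. Of 25 tested, 13 were higher and 4 lower (median 0.48), and 8 of 18 were higher and 1 lower against the paired reference (0.47). The E-type cyclins that start replication were among the higher. Because barcodes were chosen for cycle genes, the rises in this list are a description. *Ccne1* was at 34.2, 64.9, 23.5, and 46.6 CPM in cycling against 1.01, 0.626, 0.521, and 0.694 CPM in reference ECs. In the paired reference it was at 0.865, 0, 0, and 2.38 CPM, so that its fitted log2 fold change of 4.67 is not an exact fold. *E2f1*, the factor that drives S phase genes, was higher by 5.21 ± 0.31 on the log2 scale (SE, n = 4 libraries). Its paired reference was at 2.59, 0, 0, and 6.34 CPM, so that the fitted value of 3.56 there is not an exact fold either. *Cdk4*, the kinase of D-type cyclins, was at 238, 253, 179, and 269 CPM against 77.2, 80.8, 79.6, and 91.2 CPM and rose by a log2 fold change of 1.53 ± 0.12, and by 1.16 against the paired reference. Of the D-type cyclins, *Ccnd2* was at 23.5, 25.9, 17.6, and 28.6 CPM in cycling and 121, 110, 134.8, and 92.4 CPM in reference ECs, below in each library, with a log2 fold change of −2.12 ± 0.18 (edgeR adjusted p = 4.1e-13) and −1.56 ± 0.26 against the paired reference (5.6e-04). *Ccnd1* had a log2 fold change of 0.48 (edgeR adjusted p = 0.013) and −0.29 against the paired reference (0.43). Among the kinase inhibitors, *Cdkn1a*, which encodes p21, fell by 0.86 on the log2 scale but had a value of −0.39 against the paired reference (edgeR adjusted p = 0.091), whereas *Cdkn2d*, which encodes p19, was higher by 0.62 and 1.14.

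Genes of the arterial end were lower in cycling ECs. All 11 arterial genes tested were lower (median −2.68), as were all 4 capillary-arterial genes (−2.51) and 4 of 5 capillary-venous genes (−0.74). DESeq2 called 9 of the 11 arterial genes lower. Their median was −3.33 without mIgG1 and −3.45 without *EC-Ang2*, with 10 of 11 lower in each, and −3.48 without called doublets. One of them, *Gja5*, had 0 UMIs in cycling ECs of each library, so that its fold is not known. Against the paired reference 1 of 3 arterial genes (median −0.95), 2 of 3 capillary-arterial genes (−0.99), and 2 of 5 capillary-venous genes (−0.66) were lower. *Cxcl12*, a chemokine of capillary-arterial ECs in this study's scheme, was at 56.9, 13.0, 85.1, and 16.5 CPM in cycling ECs of mIgG1, Ang2 Ab, Ctrl, and *EC-Ang2*, at 442, 455, 827, and 196 CPM in reference ECs, and at 120, 93.5, 209, and 58.6 CPM in the paired reference. It was the lowest in cycling ECs of each library, with a log2 fold change of −3.30 ± 0.16 (edgeR adjusted p = 3.9e-21) and −1.43 ± 0.19 against the paired reference (4.6e-05). *Mfsd2a*, the lipid transporter that keeps transcytosis low at the barrier, was at 28.1, 25.9, 52.8, and 4.51 CPM against 121, 127, 245, and 55.0 CPM, with log2 fold changes of −2.39 ± 0.18 (edgeR adjusted p = 3.9e-14) and −0.99 ± 0.23 (0.0080). *Bmx*, a kinase of arterial ECs, fell by 3.00 on the log2 scale and by 1.66 against the paired reference (edgeR adjusted p = 0.0092). *Hey1*, a Notch target of arterial ECs, fell by 4.22 but had too few UMIs for the paired comparison. *Hey1* and *Stmn2* stand among the 10 largest falls, with 4 hemoglobin genes, *Slc6a6*, *Cxcl12*, the mural gene *Myl9*, and *Slc22a8*. Hemoglobin genes share near-identical copies, and their falls restate the hemoglobin levels given above, whose source was not tested.

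Venous genes were higher against all reference ECs but not against paired ones. Against all reference ECs, 7 of 9 were higher and none lower (median 0.74), and against paired ones none was higher and 1 lower (−0.25). With each barcode thinned to 2000 UMIs and the members chosen anew (26, 3, 11, and 23 barcodes), 1 of 9 was higher and none lower (0.35, beside −0.53 for all genes tested). In that fit, 125 of all 9311 genes tested were higher and 363 lower. *Selp*, which encodes the P-selectin that slows leukocytes on venules, was at 300, 298, 352, and 341 CPM in cycling ECs, at 80.8, 50.5, 45.8, and 218 CPM in reference ECs, and at 363, 187, 732, and 527 CPM in reference ECs paired by UMI total. Cycling ECs were thus above the full reference in each library and above the paired one in Ang2 Ab alone. The log2 fold change of *Selp* was 1.90 ± 0.18 (edgeR adjusted p = 2.2e-11) and turned to −0.49 ± 0.18 (0.092). *Ackr1*, the chemokine-binding receptor of venules, was at 2974, 3093, 3728, and 4623 CPM against 1972, 1778, 1138, and 2756 CPM. Its log2 fold change of 0.97 ± 0.10 (edgeR adjusted p = 3.3e-10) turned to −0.45 ± 0.10 (0.0050) against the paired reference, in which it was at 3945, 3909, 6055, and 5415 CPM. *Sele*, *Vcam1*, and *Lrg1* were likewise higher (0.75, 0.53, and 0.74), with values of −0.25, −0.17, and −0.07 against paired ECs that did not pass. *Vwf* and *Icam1* did not pass with either reference. Shares of barcodes with a UMI were also taken after thinning to 2000 UMIs, with the classes as chosen at full depth and all reference ECs. *Selp* had a UMI in 30.3% of cycling ECs, 4.32% of reference ECs, and 0.703% of immune barcodes, and *Cxcl12* in 7.04%, 47.7%, and 0.971%. These shares were not taken in the paired reference.

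**Figure D4:**
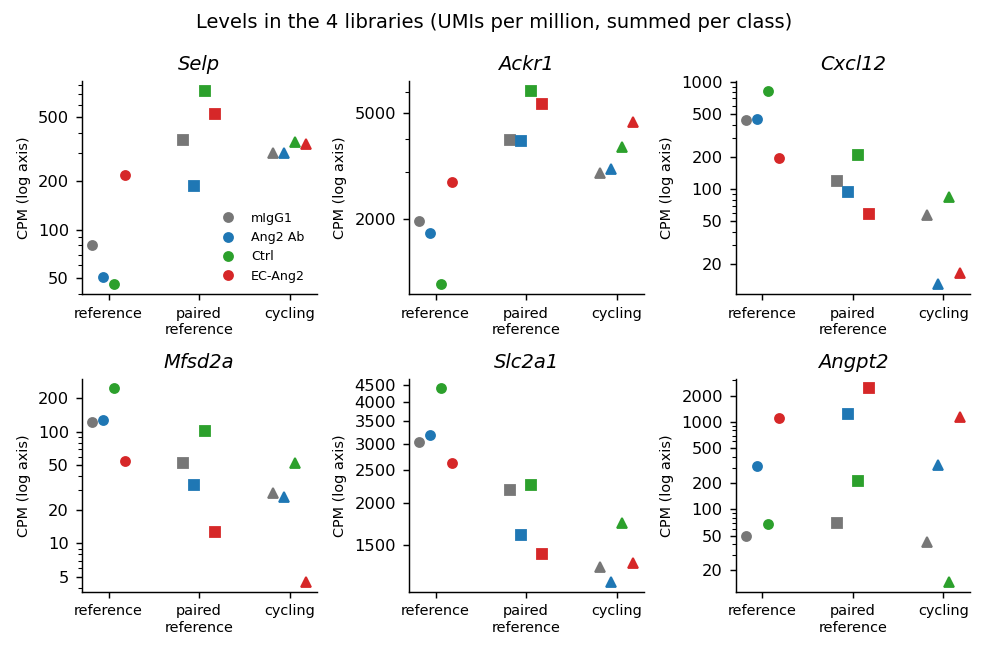
Levels of 6 genes (y axes, CPM on a log axis) in reference ECs, reference ECs paired by UMI total, and cycling ECs (x axis), with 1 point per library. *Selp* and *Ackr1* lie above the reference but at or below most of the paired reference in cycling ECs, *Cxcl12* and *Mfsd2a* lie below both, and *Angpt2* differs more between libraries than between classes.

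Transcripts of the blood-brain barrier were lower. Of 19 barrier genes tested, 16 were lower and none higher (median −1.14), and 6 of 18 against the paired reference (−0.38). *Slc2a1* was at 1285, 1161, 1743, and 1322 CPM in cycling ECs, 3048, 3198, 4390, and 2626 CPM in reference ECs, and 2191, 1604, 2258, and 1409 CPM in paired ones. In each library cycling ECs lay lowest, by a log2 fold change of −1.24 ± 0.09 (edgeR adjusted p = 2.7e-15) and −0.46 ± 0.11 (0.013). *Spock2*, a proteoglycan of brain ECs, fell by 2.33 and by 1.29, and *Abcb1a*, the drug efflux pump P-glycoprotein, by 1.34 and by 0.85, both past the threshold with both references. *Slco1a4*, an organic anion transporter, fell by 1.57, but its value against paired ECs was −0.36 (edgeR adjusted p = 0.19), and *Bsg*, the chaperone of lactate transporters, had −0.98 and −0.23 (0.28). The tight junction genes *Tjp1* (0.09, and −0.06 against paired ECs) and *Lsr* (−0.13 and 0.20) did not pass with either reference. Flow-responsive and quiescence genes were lower in 8 of 10 (median −1.31) and in 2 of 9 against paired ECs (−0.35). *Klf2*, the shear stress factor, fell by 1.36 against all reference ECs and had −0.17 against paired ones (edgeR adjusted p = 0.58), and *Klf4* fell by 1.74 and by 0.74 (0.0072). Immediate early and heat shock genes, which rise when tissue is dissociated, were lower in 10 of 10 (median −0.996) and in 3 of 10 against paired ECs (−0.43). Among them *Fos* was at 335, 285, 839, and 464 CPM against 1807, 2592, 2546, and 1782 CPM, and it fell by 0.95 against paired ECs (edgeR adjusted p = 1.9e-04). General EC genes were lower too, 10 of 12 (−0.49) and 5 of 12 (−0.35).

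**Figure D5:**
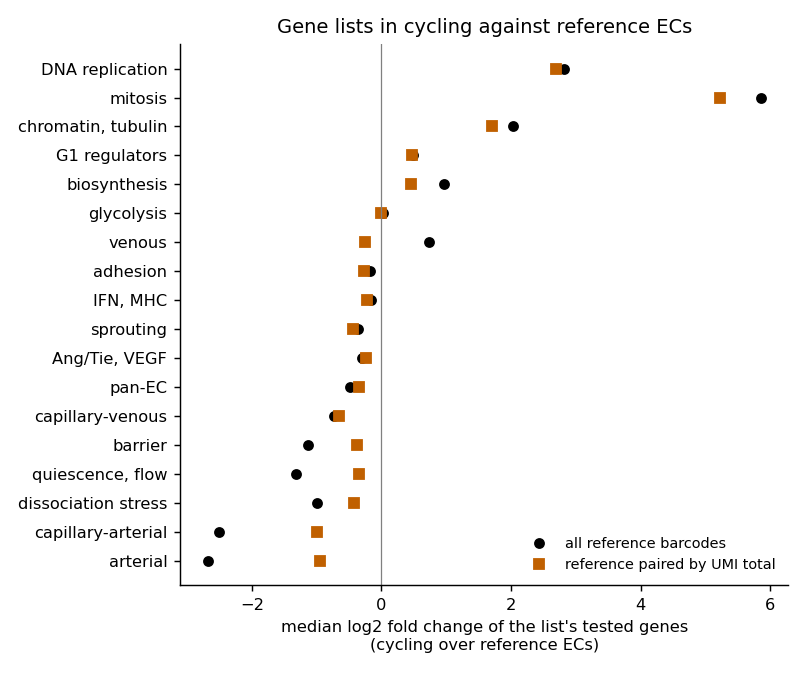
Median log2 fold change (x axis, cycling over reference ECs) of the tested genes of 18 lists (y axis), against all reference ECs (black circles) and against reference ECs paired by UMI total (orange squares), for which fewer genes could be tested. The venous list lies at 0.74 and −0.25, and the barrier list at −1.14 and −0.38.

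Among Ang/Tie and VEGF pathway genes, 3 of 16 were higher and 7 lower (median −0.30), and 1 and 3 of 13 against paired ECs (−0.23). The receptor *Flt1* (VEGF receptor 1), which binds VEGF without strong signaling, was at 511, 473, 537, and 361 CPM in cycling ECs, 1381, 1640, 1759, and 1187 CPM in reference ECs, and 969, 1109, 1033, and 684 CPM in paired ones. It was lower in each library, with log2 fold changes of −1.64 ± 0.10 (edgeR adjusted p = 9.8e-18) and −1.02 ± 0.11 (4.5e-06). *Kdr* (VEGF receptor 2) had values of −0.35 and −0.34 that did not pass. *Tek* fell by 0.97, with −0.37 against paired ECs (edgeR adjusted p = 0.15), and *Ptprb*, the phosphatase that restrains Tie2, by 0.72 and by 0.56 (0.015). The ligand *Angpt2* was at 42.5, 318, 14.7, and 1155 CPM in cycling ECs of mIgG1, Ang2 Ab, Ctrl, and *EC-Ang2*, at 48.9, 313, 68.7, and 1113 CPM in reference ECs, and at 69.2, 1243, 209, and 2427 CPM in paired ones. Its log2 fold change was −0.19 ± 0.15 (edgeR adjusted p = 0.39) and −1.504 ± 0.243 against the paired reference (3.3e-04), where it was lower in each library. UMIs of *Angpt2* were found in 17, 6, 3, and 32 cycling barcodes, 58 of 142 in all. Free RNA from outside the cell was estimated at 8.27%, 10.4%, 6.31%, and 8.90% of the UMIs of reference ECs. A single UMI of *Angpt2* therefore does not show expression by that barcode. The estimate divides the share of immune markers in reference ECs by that in empty droplets. It can be too high, because inflamed ECs can express *Cd14*, which held 15340 of the 27155 immune-marker UMIs in reference ECs of *EC-Ang2*. No such estimate was made from cycling ECs. Of 16 sprouting-type genes, 4 were higher and 6 lower (−0.36), and 1 each of 12 against paired ECs (−0.44). The higher ones included *Tubb6*, a tubulin, at 555, 590, 525, and 571 CPM against 124, 138, 76.4, and 190 CPM (log2 fold change 2.15 ± 0.13, edgeR adjusted p = 5.6e-18, and 1.04 against paired ECs). *Apln*, the tip cell ligand apelin, was higher by 1.23 with all reference ECs and had −0.45 with paired ones (edgeR adjusted p = 0.57). Single barcodes held 13 of its 29 UMIs in mIgG1, the 1 UMI in Ang2 Ab, all 14 in Ctrl, and 34 of 69 in *EC-Ang2*, and in Ang2 Ab it was lower in cycling ECs, at 6.48 against 14.1 CPM.

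Genes of ribosome assembly, protein folding, and precursor synthesis were higher in 15 of 17 and lower in 1 (median 0.97), and higher in 8 of 15 against paired ECs (0.46). After thinning to 2000 UMIs, 1 of the 14 tested passed, and it was lower (median 0.46), beside 125 higher and 363 lower of all 9311 genes. *Psat1*, an enzyme of serine synthesis, was at 20.5, 45.4, 64.5, and 32.3 CPM in cycling against 2.26, 1.57, 2.49, and 3.53 CPM in reference ECs, with log2 fold changes of 3.795 ± 0.317 (edgeR adjusted p = 3.3e-13) and 2.47 ± 0.41 (4.6e-04). The nucleolar gene *Npm1* rose by 1.16 and by 0.46, and the mitochondrial chaperone *Hspd1* by 1.04 and by 0.65, with both references. The exception was *Slc3a2*, the heavy chain of amino acid transporters, which fell by 1.06 and had −0.03 against paired ECs. Glycolysis genes were divided, with 7 of 15 higher and 2 lower (median 0.02), and 2 and 3 of 14 against paired ECs. *Gapdh* rose by 0.95 and by 0.35, and *Aldoa* fell by 0.47 and by 0.60.

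Of interferon-induced and MHC genes, 6 of 23 were higher, 2 lower, and 15 past neither side against all reference ECs (median −0.16), but 9 of 23 were lower and none higher against paired ones (−0.22). The balance against all reference ECs was not stable, with 5 higher and 7 lower with no filter on low counts, 6 and 5 with RLE size factors, 5 and 5 without called doublets, and 3 and 5 without *EC-Ang2*. The lower ones included guanylate-binding proteins, interferon-γ–induced GTPases. *Gbp2* was at 349, 221, 132, and 345 CPM in cycling ECs and at 449, 374, 557, and 954 CPM in paired ECs, lower in each library, with a log2 fold change of −1.17 ± 0.20 (edgeR adjusted p = 7.3e-04) after −0.52 ± 0.12 (4.8e-04) against all reference ECs. *Gbp4*, *Gbp3*, and *Iigp1* had −1.03, −0.78, and −1.16 against paired ECs, past the threshold there alone. *H2-Q7*, an MHC class Ib gene with near-identical copies that may share its reads, rose by 1.15 and had 0.10 against paired ECs. Of adhesion genes, which overlap the venous list, 4 of 12 were higher and 3 lower (−0.18), and 1, *Ackr1*, lower against paired ECs.

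Between conditions, the levels of cycling ECs could be set side by side only. Genes were counted as different when they differed 1.5-fold, with at least 50 UMIs in the pair of libraries together and a UMI in 10% of the barcodes of 1 library. In the blockade pair, with 62 against 8 barcodes, 434 of 4029 genes were higher (10.8%) and 661 lower (16.4%) in Ang2 Ab than in mIgG1. In the overexpression pair, with 18 against 54, 444 of 4291 were higher (10.3%) and 498 lower (11.6%) in *EC-Ang2* than in Ctrl.

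In the blockade pair, replication genes were the list farthest above 0 among those with at least 10 genes. Of 28 that met the count limits, 19 were higher, 1 was lower (median log2 ratio 0.75, against 0.17 for these genes in reference ECs), and of 29 mitosis genes none was higher and 7 were lower (−0.23, against 0.05 in reference ECs). *Mcm5*, a helicase subunit, went from 72.9 to 253 CPM, a log2 ratio of 1.80 (exact Poisson 95% interval 1.22 to 2.35). Interferon and MHC genes were lower in 10 of 23 and higher in 1 (−0.51, against −0.71 in reference ECs). Dissociation-linked (immediate early and heat shock) genes were lower in 4 of 10 and higher in none (−0.40, against 0.19 in reference ECs). Their part in the other differences was not tested. The largest rise was that of *Angpt2*, from 56 UMIs in 17 barcodes to 49 UMIs in 6, a log2 ratio of 2.90 (2.32 to 3.48) against 2.68 in reference ECs, and 2.60 without the barcode richest in it in each library. Other rises were those of *Scgb3a1*, a secretoglobin of capillary-venous ECs in this study's scheme (2.33, 2.22 without the richest barcodes, against 2.13 in reference ECs), *Apod* (2.50, and 1.07 without them), and *Mustn1* (1.78, and 1.15 without them). For *Apod*, 211 of 295 Ang2 Ab UMIs lay in 1 barcode. The genes that the rule named as falls had 0 UMIs in the 8 Ang2 Ab barcodes, so that only a lower bound of their ratio is known, and they are not shown to be the largest falls. They were *Cald1* (86 UMIs in mIgG1, at least 3.35-fold lower when 3 counts are taken as the limit of the library), *Fam167b* (59, at least 2.30-fold), *Lrrk1* (53, at least 2.07-fold), *Pmepa1* (50), and *Irf8* (50, both at least 1.95-fold). Of the *Fam167b* UMIs, 27 lay in 1 barcode, and the 32 left without it are under the limit of 50 UMIs. Summed mural markers had a log2 ratio of −3.985, and −2.85 without the richest barcodes, with 265 of 406 mIgG1 UMIs in 1 barcode. The 2 mural genes that met the count limits had a median of −4.18, against 0.22 in reference ECs. The part of mural transcripts in the fall of *Cald1* was not tested. *Cxcl12*, with 75 and 2 UMIs, had a log2 ratio of −2.13 (−5.21 to −0.23) against 0.04 in reference ECs.

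In the overexpression pair, *Angpt2* went from 5 UMIs in 3 of 18 barcodes to 1538 UMIs in 32 of 54, or from 14.7 to 1155 CPM, a log2 ratio of 6.30 (5.07 to 7.92) against 4.02 in reference ECs. Of the 5 Ctrl UMIs 3 lay in 1 barcode, and the log2 ratio was 7.38 without the richest barcode of each library. The sources used here do not give whether transcripts of the transgene count toward this gene. *Gm4951* had 0 and 50 UMIs (at least 4.27-fold higher). *Ubd*, a ubiquitin-like gene induced by interferon, had 1 and 223 UMIs. *Dcn*, a fibroblast proteoglycan gene, had 1 and 238 UMIs, 177 of them in 1 barcode. Replication genes were again higher, 17 of 32 with none lower (median 0.64, against −0.18 in reference ECs), while 10 of 32 mitosis genes were lower and 2 higher (−0.26, against −0.22 in reference ECs). Interferon and MHC genes were higher in 11 of 22 (0.74, against 0.72 in reference ECs), and barrier genes lower in 10 of 16 (−0.72 and −0.73). Of 9 venous genes none was higher and 1 lower in cycling ECs (median 0.08), while their median in reference ECs was 1.15. *Selp* was at 352 and 341 CPM in cycling ECs of Ctrl and *EC-Ang2* and at 45.8 and 218 CPM in their reference ECs. The largest falls were those of *C1qb*, *C1qc*, and *C1qa* (log2 ratios −3.99, −3.38, and −3.21), macrophage and microglia genes of which 1 Ctrl barcode held 39 of 73, 27 of 48, and 45 of 71 UMIs. Without the richest barcode of each library they were −3.04, −2.35, and −1.84. *Serpinb1a* (−2.46) and *Cxcl12* (−2.36, against −2.07 in reference ECs) followed, and without the richest barcodes both (−2.79 and −2.77) lay beyond *C1qc* and *C1qa*. All 10 dissociation-linked genes were lower in *EC-Ang2* (median −0.88, against −0.27 in reference ECs), and their part in the other differences was not tested.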

How the data were processed

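The authors deposited raw UMI counts for each gene and barcode from 4 10x Genomics Chromium libraries, empty droplets included; the submitters' processing notes name Cell Ranger 2.1.1, Seurat 2.3.4, and mm10. The libraries held 66631583 (mIgG1), 57954609 (Ang2 Ab), 52084739 (Ctrl), and 52796061 (*EC-Ang2*) UMIs. The study removed cycling cells before its own analysis; all were kept here. UMIs were summed per library and class. The classes were compared with edgeR 4.0.16 in R 4.3.3 (TMM, filterByExpr, quasi-likelihood test, library as block, Benjamini-Hochberg adjusted p under 0.05); the 19 genes of the rule were not tested. No doublets were removed in the main values. The members, the gene lists, and the rule for named genes (list genes, the 10 largest rises and falls at a mean of at least 20 CPM and with 1 sign in all 4 libraries, and the 5 largest per condition pair) were chosen with earlier results of these data known. A gene that this rule names is not reported here. Barcodes of 1 library are not replicates, and whether the libraries hold 1 mouse or several is not stated. *Fam64a* is listed under that symbol in the files. Exact intervals are at the 95% level and cover counting error only. Alternatives were DESeq2 1.42.0, RLE scaling, no count filter, thinning to 2000 UMIs, UMI-paired reference barcodes, other limits of the rule, removal of Scrublet calls (scanpy 1.11.5; 0.8% per 1000 barcodes), and leaving out each library. The script was tested on simulated data. Promoters come from RefSeq GRCm38.p6.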

Additional observations from a re-analysis of the deposited data

Results flagged for a closer look

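Barcodes outside the rule also carried cycle genes. Endothelial and immune UMIs occurred together with at least 3 of the 12 genes in 29 mIgG1, 38 Ang2 Ab, 50 Ctrl, and 11 *EC-Ang2* barcodes, or 7.42%, 11.2%, 17.01%, and 6.21% of the barcodes with both kinds of UMIs. These were left out of the comparisons and of the shares of cycling ECs, and their number exceeds that of cycling ECs in Ang2 Ab and Ctrl. Endothelial barcodes with 2 of the 12 genes, which belong to neither class, held replication genes at 981 CPM, above the 524 CPM of barcodes with none.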

How the results depend on the processing

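No paired analysis was possible because each condition is 1 library, although the library is a block in the comparison of classes. Genes called higher numbered 1735 in the comparison with all reference ECs, 125 after thinning to 2000 UMIs, 482 with the paired reference, and 1080 to 1672 without 1 library (1080 without mIgG1 and 1136 without *EC-Ang2*). Genes called lower numbered 1677, 363 after thinning, and 296 with the paired reference. Without barcodes holding a UMI of the 3 immune genes, 1180 genes were higher and 1283 lower, and DESeq2 called 1262 and 1121. The share of cycling ECs was, for mIgG1, 0.857% after thinning, 1.52% with at least 5 of the 12 genes, 2.77% with at least 2, and 0.428% with all 12, a setting chosen after seeing the data. For Ang2 Ab it was 0.0835% after thinning, 0.139% with at least 5, 0.473% with at least 2, and 0.0278% with all 12. For Ctrl it was 0.302% after thinning, 0.275% without barcodes holding a UMI of the 3 immune genes, 0.852% with at least 2, and 0.110% with all 12. For *EC-Ang2* it was 0.933% after thinning, 3.12% with at least 2, and 0.527% with all 12. Genes past the size limit, higher and lower, numbered 12 and 46 for blockade and 22 and 18 for overexpression after thinning, and 96 and 270, and 132 and 114, at 2-fold. With the paired reference the log2 fold change turned to −0.49 for *Selp*, −0.45 for *Ackr1*, −0.25 for *Sele*, −0.17 for *Vcam1*, −0.074 for *Lrg1*, −0.45 for *Apln*, −0.29 for *Ccnd1*, and −0.71 for *Cd14*, and the median to −0.25 for venous, 0.15 for immune, −0.0090 for glycolysis, and 0.36 for glial and fibroblast genes (1 gene tested, and 0.28 without immune UMIs). After thinning, *Cd14* had −0.026, *Nop58* −0.30, the adhesion list 0.036, and the glycolysis list −0.28, beside a median of −0.53 over all genes. Glycolysis genes, at 0.022 with all reference ECs, were also at −0.036 with no filter on low counts, −0.048 without mIgG1, and −0.0043 without Ctrl. Thinning ended the higher calls of the list of ribosome assembly, folding, and precursor genes, left 1 of 9 venous genes higher, and left lower calls in 14 of 18 barrier, 5 of 10 arterial, and 10 of 10 dissociation-linked genes. Over all 9311 genes tested after thinning, 125 were higher and 363 lower. The cause of these turns was not tested. Of 885 values for named genes under an alternative, 826 kept the call, 41 lost it, 8 gained it, and 10 turned in sign. A turn was counted only where a fit had called the gene, so that the 826 can include uncalled values that changed sign. The alternatives differed. With the paired reference 43 values kept the call, 11 lost it, 4 gained it, and 8 turned. After thinning 43 kept it, 17 lost it, and 2 turned.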
